A study of Mus musculus with 6 samples.

Results

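Glucagon-only wells are the wells of this mouse islet series that carried the glucagon transcript and stayed under set limits for insulin, somatostatin and pancreatic polypeptide transcripts. A well was kept when it held at least 500 unique molecular identifiers (UMIs, each standing for 1 captured mRNA molecule) and at most 20% of them from mitochondrial genes. Among kept wells, members had Gcg at 2.3% of UMIs or more, Ins1 and Ins2 together under 3.3%, Sst under 0.73% and Ppy under 10%. The rule took 143 of 2115 kept wells, out of 2304 wells in all. The Ppy limit was the loosest, and 25 members held Ppy at 1% of UMIs or more. Of all 143 members, sham plates 1, 2 and 3 gave 16, 48 and 54, and ppx plates 1, 2 and 3 gave 5, 13 and 7. The 996 insulin-only and 520 somatostatin-only wells of the same plates, chosen by the same thresholds, served for comparison. Median Ppy was 0.140% of UMIs in members, 0.0918% in insulin-only and 2.56% in somatostatin-only wells, with up to 9.95% in the last. Most somatostatin-only wells thus carried Ppy at 1% or more, and delta wells low in Ppy were not compared separately. These 5 hormone genes chose the wells, so their levels are given as a description and were not tested.

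The study looked at pairs of islet cells in physical contact in the regenerating pancreas. Islets came from male Sox9-CreER; tdTomato mice, in which tamoxifen switches on a red reporter in cells expressing Sox9 and in their descendants. All mice, sham-operated ones included, received 8 mg tamoxifen for 2 weeks from 10 weeks of age, had surgery at 12 weeks and gave islets 4 weeks later. Surgery was a partial pancreatectomy (ppx), which removes part of the pancreas, or a sham operation. Dissociated islet cells were sorted by flow cytometry into 6 plates of 384 wells and profiled by MARS-seq, which counts UMIs at the 3′ end of transcripts. Sham plate 1 and ppx plate 1 held tomato-positive cells, sham plate 3 and ppx plates 2 and 3 held tomato-negative cells, and sham plate 2 was mixed, with 4 rows of positive cells. The labels do not tie plates to animals, so p-values measure the spread between plates, which may be technical.

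Alpha cells are the endocrine cells that secrete glucagon, the hormone that makes the liver release glucose when blood sugar falls. They cut proglucagon to glucagon with the prohormone convertase PC2, encoded by Pcsk2, whereas beta cells also use PC1/3, encoded by Pcsk1, to make insulin. The transcription factor IRX2 marks alpha cells in the adult mouse islet, and amino acids are a strong stimulus of glucagon secretion.

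The promoters of 3 of the 5 labelled alpha markers are shown because the text follows these genes through all plates. Each line gives the 250 bases before the start site of the RefSeq transcript on GRCm38, 5′ to 3′ on the gene's strand. Gcg lies on the minus strand and its window is chr2:62483654-62483903. The Irx2 window is chr13:72628570-72628819 on the plus strand, and the Pappa2 window is chr1:158958176-158958425 on the minus strand. Capitals mark matches to TATAAA on either strand.
Gcg: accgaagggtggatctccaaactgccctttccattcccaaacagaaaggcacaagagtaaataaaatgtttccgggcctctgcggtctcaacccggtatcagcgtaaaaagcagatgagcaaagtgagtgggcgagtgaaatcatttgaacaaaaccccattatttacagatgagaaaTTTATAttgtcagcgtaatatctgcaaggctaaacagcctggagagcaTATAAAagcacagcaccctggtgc
Irx2: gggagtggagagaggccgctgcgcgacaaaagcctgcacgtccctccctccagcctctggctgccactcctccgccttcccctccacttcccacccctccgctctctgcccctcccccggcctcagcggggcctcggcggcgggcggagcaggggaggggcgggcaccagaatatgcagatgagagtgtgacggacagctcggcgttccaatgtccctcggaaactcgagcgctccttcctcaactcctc
Pappa2: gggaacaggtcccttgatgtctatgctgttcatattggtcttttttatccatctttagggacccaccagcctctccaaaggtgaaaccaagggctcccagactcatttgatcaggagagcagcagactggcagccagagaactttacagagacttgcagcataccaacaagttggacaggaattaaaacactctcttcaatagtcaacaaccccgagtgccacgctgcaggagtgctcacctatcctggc
The Gcg window holds 2 matches to TATAAA, whose first bases lie at -72 and -24 from the start site. Of 32851 promoter windows of this length, 12.4% hold at least 1 such match. The forkhead letters TGTTTAC stand in 3.17% of the windows, counted on both strands, and in none of the 3 windows above.

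Glucagon transcript made up a median of 25.3% of the UMIs of a member well, from 5.19% to 42.6%. In the summed wells it was 29.5%, 30.6% and 21.8% on sham plates 1, 2 and 3, and 25%, 28.4% and 31.6% on ppx plates 1, 2 and 3. The sham and ppx ranges overlapped. Insulin-only wells held 0.290%, 0.333% and 0.204% Gcg on the sham plates and 0.149%, 0.0976% and 0.0381% on ppx plates. A low level of Gcg was thus read in 91.3% of insulin-only wells and in 95.2% of somatostatin-only wells. Across plates this low level was lowest on ppx plate 3.

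**Figure D1:**
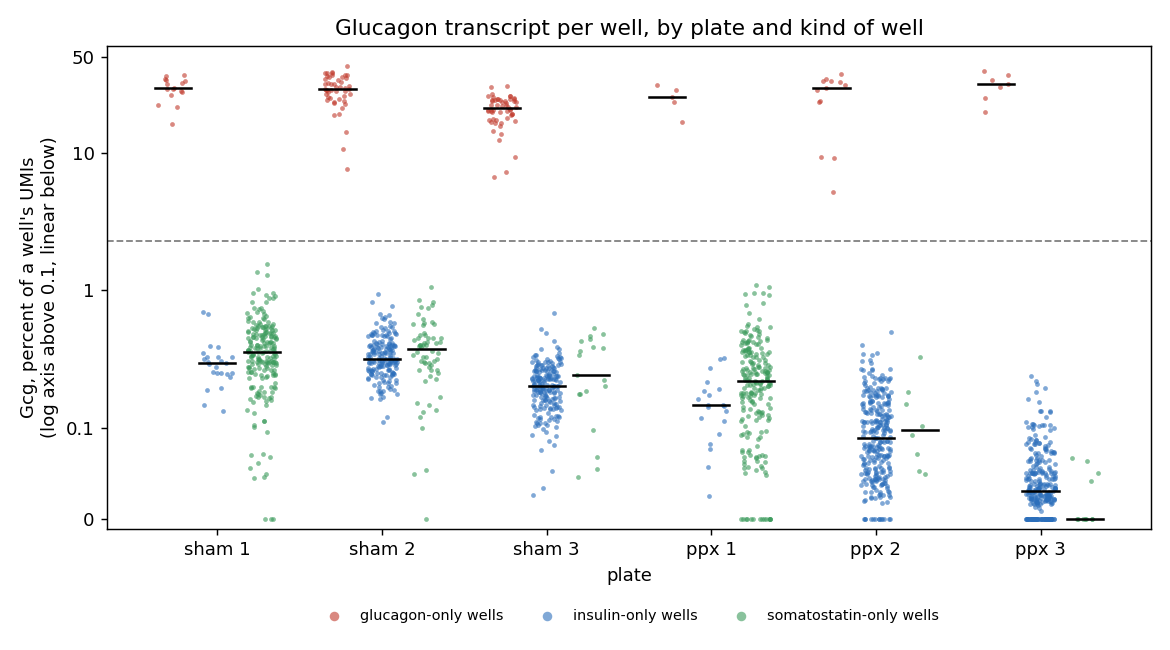
Gcg as a percent of each well's UMIs (log axis above 0.1, linear below), by plate, 1 point per well, for glucagon-only, insulin-only and somatostatin-only wells. Black bars are medians and the dashed line is the 2.3% threshold that chose the wells, which no member well approached more closely than 5.19%.

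The lowest member well stood at 5.19% Gcg and the next at 6.73%, while the highest of 115 kept wells low in all 4 hormones reached 1.54%. Few wells therefore lay near the glucagon threshold, and 7 members had less than 10% Gcg. The other edges were closer. The highest member had 0.686% Sst, and the nearest glucagon-high well left out for Sst alone had 0.751%. For Ppy, which encodes pancreatic polypeptide, the highest member had 9.98% and the nearest well left out had 12.1%. For insulin, the highest member had 1.29% and the nearest well left out had 13.0%.

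Not every glucagon-high well is a member. Of 226 kept wells with Gcg at or above the threshold, 143 were members, 54 were left out for Sst alone, 10 for Ppy alone, 6 for insulin alone and 13 for more than 1 hormone. On the tomato-positive plates members were 31.4% (sham) and 29.4% (ppx) of the glucagon-high wells. On the other plates they were 75% and 84.4% (sham 2 and 3) and 65% and 70% (ppx 2 and 3). High Sst was the most frequent criterion that left them out: 66.7% and 52.9% of glucagon-high wells on the tomato-positive plates passed the Sst threshold, against 23.4%, 6.25%, 15% and 20% on the others. Those 2 plates also held 206 and 214 somatostatin-only wells, against 8 to 62 on the others. No doublet caller was run, and how many of these wells held more than a single cell was not tested.

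Member wells held a median of 3357 UMIs (906 to 10093) and 1289 detected genes, and 6.03% of UMIs were mitochondrial. Insulin-only wells had a median of 4248 UMIs and 9.18% mitochondrial UMIs, and somatostatin-only wells 1560.5 UMIs and 11.9%. Median UMIs of members were 3724.5, 3388 and 2836.5 on sham plates 1, 2 and 3 and 9169, 3011 and 4104 on ppx plates 1, 2 and 3, so the 5 wells of ppx plate 1 stood apart. Members were deeper than somatostatin-only wells on 6 of 6 plates, by 1.20 ± 0.72 on the log2 scale (SD, n = 6) or 2.29-fold, with an exact two-sided sign-flip p = 0.03125, the smallest that 6 plates allow. Against insulin-only wells the log2 ratio of median UMIs was -0.17 ± 0.64 (SD, n = 6), higher on 2 of 6 plates, with an exact sign-flip p = 0.5625. Plates as a whole held 1250861 to 1508513 UMIs. The summed member wells held 18589 to 132330 UMIs per plate outside the 5 hormone genes, and all levels in CPM (counts-per-million) below use that total.

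The label alpha came with 4 further markers that the rule did not use. They were chosen with earlier results of these data known, so their levels describe the members and are no independent check of the label. Of the 4 non-hormone labelled markers, Ttr, Irx2, Pappa2 and Gfra3, no member had 0 with a UMI, 7 had 1, 59 had 2, 58 had 3 and 19 had all 4. Ttr, the carrier of thyroxine and retinol-binding protein, was detected in 143 of 143 members. It was detected in 99.2% of insulin-only wells too, so its level, not its detection, set members apart. Pappa2, a protease that frees insulin-like growth factors, was detected in 92.3% of members, against 14.7% (insulin-only) and 4.42% (somatostatin-only) of the other wells. For Irx2 the shares were 44.1%, 0.703% and 0.769%, and for Gfra3, a receptor of the neurotrophic factor artemin, 25.9%, 0.201% and 0.00%. A count of 0 in 520 wells allows a share of wells with a UMI of up to 0.577%, which limits detection at this depth and not the share of wells expressing Gfra3. Thinning to 900 UMIs was calculated for wells with at least that many: 143 members, 990 insulin-only and 483 somatostatin-only wells. The expected shares with a UMI were 60.3%, 4.48% and 2.39% for Pappa2 and 14.0%, 0.137% and 0.38% for Irx2. For Gfra3 they were 7.94%, 0.0296% and 0.00%.

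Member wells differed among themselves more in some of these genes than in others. On the scale of CPM of all UMIs in a well, Ttr ran from 3168 to 69798, with a median of 19351. Pappa2 ran from 0 to 3544 with a median of 1017 and was at 0 in 7.69% of members. Pcsk2, the convertase of proglucagon, ran from 1626 to 15453 with a median of 6842 and was at 0 in none of the 143 wells. Pyy, the gene of peptide YY, spanned 0 to 93196 with a median of 4164.

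Against insulin-only wells, Pappa2 and Ttr were both higher in glucagon-only wells on 6 of 6 plates. UMIs were summed per plate and kind of well and tested with edgeR's quasi-likelihood F test, with the plate as a block and p-values adjusted over all 1971 genes tested by the Benjamini-Hochberg method. In that fit 885 genes (44.9%) were called: 440 genes (22.3%) were higher in glucagon-only than in insulin-only wells and 445 (22.6%) were lower, at an adjusted p under 0.05. DESeq2 called 370 and 430. Against somatostatin-only wells 469 (23.8%) were called, 274 (13.9%) higher and 195 (9.89%) lower, and DESeq2 called 228 and 162. Both comparisons share the glucagon-only sums. Member wells were 2.29-fold deeper than somatostatin-only wells, and the part of that difference in the second comparison was not tested. The median over all genes was -0.02 and -0.01 on the log2 scale.

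Ttr stood at 28271, 39429 and 37331 CPM in glucagon-only wells of sham plates 1, 2 and 3 and at 24233, 43711 and 29749 CPM on ppx plates 1, 2 and 3. Insulin-only wells held 2705 to 3460 CPM and somatostatin-only wells 373 to 852 CPM, with no overlap between kinds. The edgeR log2 fold change of Ttr was 3.38 ± 0.12 (SE) against insulin-only wells, adjusted p = 4.3e-48, and 5.58 ± 0.15 against somatostatin-only wells, adjusted p = 2.9e-60. Pappa2 stood at 1775, 1577 and 1458 CPM on the sham plates and 1486, 1976 and 1237 CPM on ppx plates. Insulin-only wells held 82.3 ± 3.27 CPM of it (SD, n = 6) and somatostatin-only wells 17.3 ± 22.9. The log2 fold changes of Pappa2 were 4.22 ± 0.14 and 5.38 ± 0.23, with edgeR adjusted p = 2.9e-50 and 5.1e-41.

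Irx2 and Gfra3 were below the count filter of this fit. Irx2 stood at 296, 282 and 242 CPM on the sham plates and at 35.4, 375 and 108 CPM on ppx plates in glucagon-only wells, and at 0 to 6.16 CPM in insulin-only wells. Somatostatin-only wells held 59.8 CPM on ppx plate 3, a plate with 11 such wells, and at most 10.0 CPM elsewhere. Gfra3 stood at 250, 188 and 129 CPM on the sham plates and at 106, 0 and 53.8 CPM on ppx plates, with 2 UMIs in all insulin-only wells and 0 UMIs in all somatostatin-only wells. The ratio of summed Gfra3 CPM to insulin-only wells was 265 (exact 95% interval 70.0 to 2241, counting error only). Against somatostatin-only wells, Gfra3 was at least 36.8-fold higher, counting 3 UMIs over the whole group as the limit that a 0 allows. Without the filter, edgeR gave Irx2 log2 fold changes of 6.22 and 4.84 with adjusted p = 4.9e-38 and 5.1e-13.

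**Figure D2:**
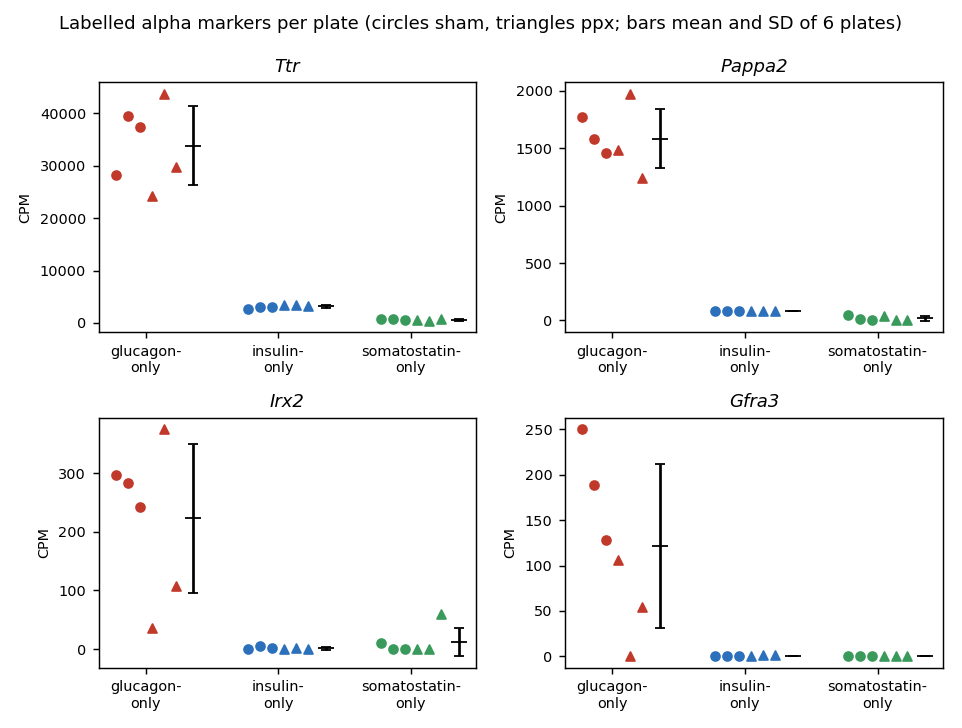
CPM of the 4 labelled alpha markers other than Gcg in the summed wells of each kind, 1 point per plate, with the mean and SD of 6 plates as black bars. Ttr and Pappa2 were higher in glucagon-only wells on every plate, and Gfra3 was 0 on ppx plate 2.

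Of 11 genes listed for alpha identity, 5 passed the count filter (Ttr, Etv1, Pappa2, Gc and Smarca1), and all 5 were called higher against both other kinds by edgeR (5 and 4 by DESeq2). Their median log2 fold change was 3.43 against insulin-only and 1.17 against somatostatin-only wells. Genes pass the filter through the groups where they are high, so this count describes those 5 and is no test of the list. Of all genes tested, edgeR called 22.3% and 13.9% higher. The second median moved with which members passed: it was 4.22 over all 11 without the filter, where 7 were called, and 2.79 over 6 without ppx plate 1. Etv1 and Smarca1 were far from insulin-only wells (3.43 and 4.30) but close to somatostatin-only wells (0.51 and 0.90). The calls against somatostatin-only wells rested on single plates: Etv1 lost its call without any 1 plate other than ppx plate 2 (0.39 to 0.60), and Smarca1 without sham plate 3 (0.80) or ppx plate 1 (0.68). Gc, the vitamin D-binding protein, was higher by 1.42 and 1.17, the second being 0.69 without ppx plate 1, and 0.47 and not called on the tomato-negative plates alone. Of the rest, Irx1 had 40 UMIs in members against 2 and 1 in the other kinds, Slc38a5 had 52 against 19 and 8, and Pou3f4 and Fap had 4 and 1 against 0.

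Among genes outside that list, Gpx3, which encodes a secreted glutathione peroxidase, was higher than in insulin-only wells by 4.98 ± 0.13 on the log2 scale (5927 ± 599 against 209 ± 84.0 CPM, SD, n = 6, edgeR adjusted p = 8.2e-61). Pdk4, the kinase that shuts off pyruvate dehydrogenase, was higher by 5.91 against insulin-only wells and by 6.65 against somatostatin-only wells (6.04 without sham plate 1 and 7.44 without sham plate 3), where those wells held 2 UMIs. That ratio of summed CPM was 127 (exact 95% interval 34.5 to 1061). The other genes with the largest increases over insulin-only wells that held on all 6 plates were Basp1 (5.79), the potassium channel gene Kcnk3 (5.76), Vwde (5.24), the serotonergic transcription factor gene Fev (4.94), Wnk3 (4.80), Dpp10 (4.46) and Smarca1 (4.30). On 6 of 6 plates 324 genes (16.4%) were higher and 328 (16.6%) were lower than in insulin-only wells. Over somatostatin-only wells the largest increases, also on all 6 plates, included the lipoprotein lipase gene Lpl (5.11), Tmsb15b2 (4.79), Klf4 (4.75), Slc7a2 (4.39), the zinc transporter gene Slc30a8 (4.15) and Ell2 (4.14, or 3.46 without sham plate 1). There, 229 genes (11.6%) were higher and 140 (7.1%) lower on all plates.

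Beta cell genes were low in glucagon-only wells. All 14 filtered members of the 19 beta identity genes were called lower than in insulin-only wells, with a median log2 fold change of -4.19. Over the whole fit 22.6% of genes were called lower. Genes pass the filter through the groups where they are high, so the count of 14 describes those genes and is no test of the list. Mafa, the beta cell transcription factor, fell by 6.08 ± 0.28 (12.1 ± 14.6 against 1030 ± 103 CPM, SD, n = 6, edgeR adjusted p = 1.2e-38). The log2 fold change was -5.06 for Ucn3, urocortin 3, -5.07 for the glucose transporter gene Slc2a2, -4.43 for G6pc2 and -4.90 for Iapp, islet amyloid polypeptide. Slc30a8 was the smallest of the 14, at 727 ± 235 against 962 ± 160 CPM, and fell by 0.44 ± 0.12. Creb3l1 had 0 UMIs in members against 480 in insulin-only wells and was at least 16.9-fold lower. Prlr, the prolactin receptor, fell by 4.69. Tmem215, Nupr1 and the opioid precursor gene Pdyn had 2, 2 and 3 UMIs in members against 1361, 935 and 795, which gives ratios of insulin-only to glucagon-only CPM of 71.9 (exact 95% interval 19.9 to 595), 49.4 (13.6 to 409) and 28.0 (9.55 to 136). Against somatostatin-only wells the beta list was mixed: 2 of 14 were called higher (Slc30a8 4.15, Ero1lb 0.72), 4 were called lower (Nnat, Iapp -2.93, Ppp1r1a -2.68 and Pdx1 -2.65), and the median was -0.16. In that comparison 13.9% of all genes were called higher and 9.89% lower. Ero1lb was higher in members on 2 plates and lower on 4, and its call held in 9 of 14 alternatives. Among others, the call was lost without sham plate 1 (0.39) or sham plate 3 (0.58) and by DESeq2 (0.49). Nnat, with 1 UMI in members against 179, fell by 6.41 with all plates and gave -9.24 without sham plate 1.

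Delta cell genes separated members from somatostatin-only wells. Hhex, the delta cell homeobox factor, had 1 UMI in the 143 members against 376 in the 520 somatostatin-only wells, a log2 fold change of -7.10 ± 0.65 (-9.98 without ppx plate 1, which held that UMI, edgeR adjusted p = 3.4e-17). The ratio of somatostatin-only to glucagon-only Hhex CPM was 191 (exact 95% interval 34.0 to 7553). Rbp4, retinol-binding protein, fell by 2.60 and the arginase gene Arg1 by 2.81, and these were the 3 filtered members of 8. All 3 were called lower, beside 9.89% of all genes tested. The filter again passes genes through the groups where they are high, so this count is no test of the list. Other genes among the 12 largest decreases were Fam159b (-6.01), Cd24a (-5.40), Sez6l (-4.57), the secreted Wnt antagonist gene Frzb (-4.22) and Rab3b (-4.15). Without sham plate 1 the value of Cd24a was -6.25. Cela1, Cd44, Mest and Spock1 were also among them, with 1 to 3 UMIs in members. Against insulin-only wells Rbp4 was called higher by 3.55 (5.38 on the tomato-negative plates alone), with 5 plates higher and ppx plate 1 lower (637 against 679 CPM). Arg1 was called higher by 2.79, on 27 UMIs against 22, with 4 plates higher, ppx plate 3 lower and ppx plate 2 at 0 in both.

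The genes that process and store peptide hormones were split. Of 15 listed, 13 passed the filter, and against insulin-only wells 6 were called higher, 5 lower and 2 neither, with a median of 0.20. Over all genes tested, 22.3% were called higher and 22.6% lower. Pcsk2 stood at 8900, 9485 and 9975 CPM on the sham plates and 7641, 7495 and 10221 CPM on ppx plates in glucagon-only wells. Insulin-only wells held 4178 to 4583 CPM and somatostatin-only wells 3526 to 4758 CPM of it, so Pcsk2 did not overlap between members and either other kind. Its log2 fold changes were 1.00 ± 0.11 and 1.06 ± 0.11, with edgeR adjusted p = 1.6e-14 and 4.5e-14.

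Pcsk1 went the other way, with 8 UMIs in members, 2971 in insulin-only and 134 in somatostatin-only wells. It stood at 22.8, 0 and 30.2 CPM on the sham plates and 0, 68.1 and 53.8 CPM on ppx plates in members, below 631 to 883 CPM in insulin-only and 119 to 192 CPM in somatostatin-only wells. Pcsk1 fell by 5.23 ± 0.28 and by 3.20 ± 0.42, with edgeR adjusted p = 6.1e-33 and 3.05e-10. Without sham plate 2 the first value was -4.60.

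The chaperones of these convertases were high together with Pcsk2. Pcsk1n, which encodes proSAAS, was higher by 1.5 and 1.31 against insulin-only and somatostatin-only wells, and Scg5, the 7B2 chaperone of PC2, by 0.83 and 0.84. Resp18 (1.49 and 0.54), Scgn (0.90 and 0.79) and the amidating enzyme gene Pam (0.86 and 0.63) were also higher against both. The granins differed: Chga was lower than in insulin-only wells (-0.93) and higher than in somatostatin-only wells (0.90), whereas Chgb (-0.67 and -1.97) and Scg2 (-2.35 and -1.62) were lower than in both. Scg3 was lower than in insulin-only wells only by the test (-0.69), with 0.18 against somatostatin-only wells. Against somatostatin-only wells 8 of the 13 were called higher, Cpe (1.01) among them, and 3 lower, with a median of 0.63. The shares over all genes were 13.9% and 9.89%.

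Several amino acid transporter genes were higher in members. Of 10 listed, 5 passed the filter, 4 of them were called higher and none lower against insulin-only wells, and the same counts held against somatostatin-only wells, with medians of 1.16 and 2.16. Across all genes tested, 22.3% and 13.9% were called higher. The list counts leave out the 5 members below the filter, among which Slc7a5, the light chain of a large neutral amino acid exchanger, had 5 UMIs in members against 260 in insulin-only wells and gave -2.58 in the unfiltered edgeR fit (adjusted p = 0.00037). Slc7a2, which carries arginine and lysine, stood at 728, 557 and 514 CPM on the sham plates and 743, 238 and 807 CPM on ppx plates. It was higher by 1.75 ± 0.18 and 4.39 ± 0.32, with edgeR adjusted p = 1.0e-14 and 9.8e-23. Slc7a8 was higher by 1.16 and 2.76 and Slc3a2, the shared heavy chain of several amino acid exchangers, by 0.53 and 2.06. The first Slc3a2 call was lost without sham plate 2 (0.50) or sham plate 3 (0.47), by DESeq2 (0.43) and on the tomato-negative plates alone (0.35). Slc16a10, which carries aromatic amino acids, was called against insulin-only wells (1.19) and had 0.39 against somatostatin-only wells, and Slc38a4 was called against somatostatin-only wells (2.16) and had 0.24 against insulin-only wells.

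Of 13 genes for glucose entry and glycolysis, 4 were tested. All 4 were called lower than in insulin-only wells, beside 22.6% of all genes tested: Slc2a2, G6pc2, Aldoa (-0.63) and Pkm (-0.50, or -0.39 and not called without sham plate 3). None was called against somatostatin-only wells by edgeR or DESeq2, although 2 had an unadjusted p under 0.05 there (31.5% of all genes tested did), and Aldoa had -0.43 and Pkm -0.37. Aldoa was called there without sham plate 2 (-0.63). Below the filter, Hk1, which encodes a hexokinase, had 8 UMIs in members against 6 in insulin-only wells, and the glucose transporter gene Slc2a3 had 5 against 1. In the unfiltered edgeR fit both were called higher than in insulin-only wells, by 3.10 (adjusted p = 0.0095) and 3.74 (adjusted p = 0.019).

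Of 12 transcription factor genes shared by islet cells, 7 were tested, with 2 called against insulin-only and 4 against somatostatin-only wells. Over all genes tested, 44.9% and 23.8% were called. Against insulin-only wells Isl1 was higher (1.13) and Insm1 lower (-1.39). Against somatostatin-only wells Neurod1 was higher (0.86), and Insm1 (-0.83), Pax6 (-0.87) and Rfx6 (-1.21) were lower. The Rfx6 call was lost without ppx plate 1 (-0.98), those of Insm1 (-0.75) and Pax6 (-1.11) on the tomato-negative plates alone, and all 4 without the count filter. Medians were -0.02 and -0.54.

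Of 19 listed receptors, 3 passed the filter. Gria2, an AMPA glutamate receptor subunit, was higher against insulin-only (3.96) and somatostatin-only wells (1.41). Adra2a, the receptor by which adrenaline inhibits insulin secretion, was lower against both: -3.79 (-4.67 without sham plate 3) and -2.04 (-1.67 and not called without sham plate 2). Sstr3 had -0.38 and -0.18 and was not called. Below the filter, the glucagon receptor gene Gcgr and the GLP-1 receptor gene Glp1r had 0 UMIs in the 143 members, which allows up to 7.90 CPM, against 50 and 180 UMIs in insulin-only wells (17.0 ± 7.03 and 57.9 ± 30.0 CPM, SD, n = 6). The somatostatin receptor gene Sstr2 had 8 UMIs in members, 0 in insulin-only and 2 in somatostatin-only wells.

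Of 18 genes for ion channels and exocytosis, 8 were tested. Calls over all genes made up 44.9% against insulin-only and 23.8% against somatostatin-only wells, and the few calls given here are no feature of the list. Rab3a was lower than in insulin-only wells (-1.07, or -0.75 and not called without sham plate 2) and Cplx2 higher (0.42). The Cplx2 call held in 8 of 15 alternatives, with values down to 0.05 without the count filter and 0.17 without sham plate 3. Abcc8 and Kcnj11, the 2 subunits of the ATP-sensitive potassium channel, had 0.01 and -0.04 against insulin-only wells and were lower than in somatostatin-only wells (-0.73 and -0.85). The Kcnj11 call was lost without any 1 of 5 plates, with values from -0.92 to -0.62.

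Genes of endoplasmic reticulum stress and protein folding were lower than in insulin-only wells. Of 19 listed, 16 were tested, 15 were called lower and none higher by edgeR, with a median of -1.0, and DESeq2 called 14 lower. Among all genes tested, edgeR called 22.6% lower. Hspa5, the BiP chaperone, stood at 1775, 1428 and 1217 CPM on the sham plates and 2016, 1669 and 1560 CPM on ppx plates in members. In insulin-only wells it stood at 2380, 2161 and 2152 CPM on the sham plates and 3473, 3548 and 3884 CPM on ppx plates, higher than in members on each plate. The Hspa5 log2 fold change was -0.83 ± 0.11, edgeR adjusted p = 2.9e-10. Against somatostatin-only wells 1 of the 16, Atf4 (0.62), was called higher and none lower by edgeR or DESeq2, with a median of 0.03. The edgeR shares over all genes were 13.9% and 9.89%. The Atf4 call was lost without sham plate 2 (0.50).

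Immediate early genes were higher in members. Of 14 immediate early and heat shock genes, 12 were tested, 10 were called higher and 2 lower than in insulin-only wells, with a median of 1.29. Among all genes tested, 22.3% were called higher and 22.6% lower. Atf3 stood at 1525, 1200 and 1066 CPM on the sham plates and 1521, 1261 and 915 CPM on ppx plates, above 97.1 to 248 CPM in insulin-only wells and 0 to 478 CPM in somatostatin-only wells. It was higher by 3.23 ± 0.15 and 2.65 ± 0.18, with edgeR adjusted p = 9.9e-39 and 7.8e-25. Egr1 (1.64 and 0.50), Fos (1.06 and 0.59), Jun (1.36 and 0.63) and Dusp1 (1.21 and 1.79) were also higher against both kinds. The heat shock genes Hspa1a and Hspa1b were lower against both, by -0.52 and -0.90 and by -1.99 and -2.55. The first Hspa1a value was not called without sham plate 1 (-0.41), sham plate 2 (-0.35) or ppx plate 3 (-0.49). Against somatostatin-only wells 9 of the 12 were called higher and 2 lower, with a median of 0.61, and Ier2 (0.44) lost its call without sham plate 2 (0.34) or ppx plate 1 (0.30). There, 13.9% of all genes were called higher and 9.89% lower.

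Ribosomal protein genes were higher in members than in both other kinds. Of the 66 tested among 276 rows named as ribosomal protein genes or their pseudogenes, 62 were called higher than in insulin-only wells (median 1.20) and 42 higher than in somatostatin-only wells (median 0.68), and none was called lower by edgeR or DESeq2. DESeq2 called 60 and 36 higher. Across all genes tested, edgeR called 22.3% and 13.9% higher. Copies with near-identical sequence can share reads, so single genes of this family are not named. Of 12 tested mitochondrially encoded genes, 6 were lower than in insulin-only wells, and 4 were higher and 2 lower than in somatostatin-only wells. For all genes these shares were 22.6%, 13.9% and 9.89%. The mitochondrial share that filtered the wells differed between kinds, as given above, and its part in these counts was not tested.

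**Figure D3:**
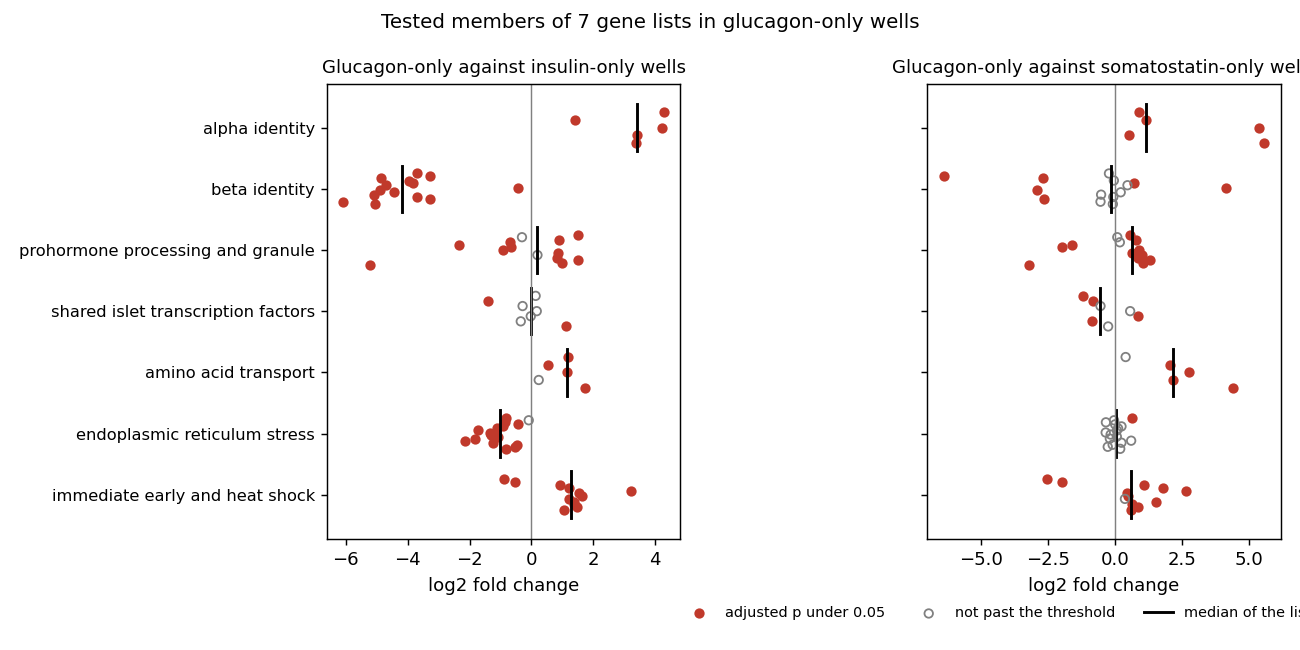
Log2 fold changes of the tested members of 7 gene lists in glucagon-only wells against insulin-only wells (left) and somatostatin-only wells (right), 1 point per gene, with black bars for list medians. Filled points passed an adjusted p under 0.05, and the alpha identity medians lie at 3.43 and 1.17.

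Most marker lists of other cell types were low in members, and the duct list was not. All 5 lymphocyte markers and 8 of 9 acinar markers had 0 UMIs in members, and the summed acinar list reached at most 22.8 CPM on a plate. The summed endothelial, stromal, Schwann and erythroid lists reached at most 52.9, 52.9, 68.3 and 15.1 CPM, and the macrophage list 219 CPM on 1 sham plate. Sox9 and Krt19, duct markers, had 0 UMIs in members, the tomato-positive plates included. Krt19 had 0 UMIs in both other kinds too. The duct list of 5 genes summed to 307 to 814 CPM in members, from Krt7, Spp1 and Clu, beside 397 to 640 CPM in insulin-only and 1255 to 2009 CPM in somatostatin-only wells. Mki67 and Top2a, which mark dividing cells, had 0 UMIs in members against 17 and 32 in the 996 insulin-only wells. Members held 379939 UMIs outside the hormone genes against 3594692 in insulin-only wells, and a 0 in members allows up to 7.90 CPM. None of the 12 proliferation genes passed the filter, so a difference between kinds was not tested.

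Glucagon-only wells were a smaller share of kept wells on ppx plates. They were 4.51% (exact Clopper-Pearson 95% interval 2.60 to 7.22%), 13.6% (10.2 to 17.6%) and 15.9% (12.2 to 20.3%) on sham plates 1, 2 and 3. On ppx plates 1, 2 and 3 they were 1.4% (0.458 to 3.25%), 3.59% (1.93 to 6.06%) and 2.00% (0.808 to 4.08%). These intervals cover counting error only. The highest ppx plate lay below the lowest sham plate. The mean was 2.33 ± 1.13% against 11.3 ± 6.04% (SD, n = 3 plates each), a difference of -9.01 percentage points, with an exact two-sided permutation p = 0.1, the smallest that 3 against 3 plates allow. Within the tomato-positive plates the difference was -3.10 points, and within the tomato-negative plates -13.1 points. Plates were filled by sorting on tomato, the mixed plate has no ppx counterpart, and fewer alpha cells, other sorted cells or other animals on these plates cannot be told apart.

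**Figure D4:**
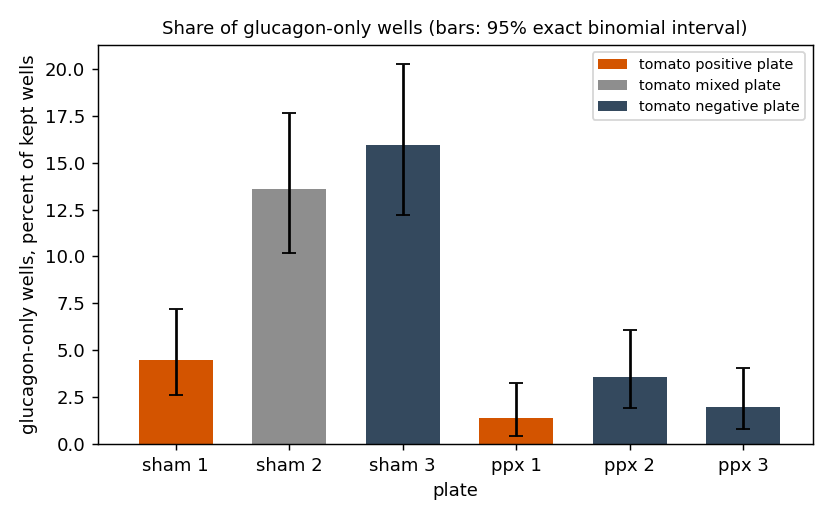
Glucagon-only wells as a percent of kept wells on each plate, with exact binomial 95% intervals, coloured by the tomato status of the plate. The ppx plates lie between 1.4% and 3.59% and the sham plates between 4.51% and 15.9%.

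Few genes differed between ppx and sham within glucagon-only wells. Of 491 genes tested with edgeR on the 6 plate sums, 5 (1.02%) were called, 3 (0.611%) higher and 2 (0.407%) lower in ppx, and 33 (6.72%) had an unadjusted p under 0.05. DESeq2 called 1. Leaving out 1 plate gave 1 (ppx plate 3), 2 (sham plate 1 or 3), 3 (ppx plate 1 or 2) or 6 calls (sham plate 2). In 60 genes (12.2%) the ppx and sham plates did not overlap. The ppx sums rest on 5, 13 and 7 wells.

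E130111B04Rik, an antisense RNA gene at chr11:102030268-102035084 (minus strand, GRCm38), stood at 68.3, 23.5 and 174 CPM on sham plates 1, 2 and 3 and at 389, 1124 and 1345 CPM on ppx plates 1, 2 and 3. All ppx plates lay above all sham plates. Its log2 fold change was 3.29 ± 0.39, edgeR adjusted p = 1.7e-10, and DESeq2 called it too. It was called in 15 alternatives, with values from 2.73 (without sham plate 2) to 4.61 (without sham plate 3), and fell below the count filter once members with at least 1% Ppy were left out. Those 25 wells held 86 of its 98 UMIs in members, and the other 118 wells held 12. In the 25 wells it stood at 304, 234 and 1007 CPM on the sham plates and 822, 4725 and 1567 CPM on ppx plates, which overlap. In the other 118 wells it stood at 0, 8.41 and 43.7 CPM on the sham plates and at 0, 254 and 0 CPM on ppx plates 1, 2 and 3, from 3, 11 and 1 ppx wells. In insulin-only wells it stood at 38.2, 7.71 and 22.7 CPM on the sham plates and 144, 210 and 23.0 CPM on ppx plates, and the ppx effect was not called different between the 2 kinds of well (interaction 0.73 ± 0.58, edgeR adjusted p = 0.95). The sources used here do not say whether counting used the strand, so reads of an overlapping gene on the other strand cannot be told apart. On the same chromosome and strand lie Ppy (chr11:102099930-102101319) and Pyy (chr11:102106676-102107832).

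Pyy, a gut and islet peptide of the pancreatic polypeptide family, stood at 12815, 7233 and 15371 CPM on the sham plates and 15849, 17205 and 51697 CPM on ppx plates. The groups did not overlap, but ppx plate 1 lay just above sham plate 3, and ppx plate 3 stood apart. Its log2 fold change was 1.30 ± 0.23, edgeR adjusted p = 6.6e-05, and DESeq2 did not call it (1.32). Without ppx plate 3 it was 0.53 and not called (adjusted p = 0.51). On ppx plate 3, 6 of 7 members had Ppy at 1% or more of UMIs, against 2 of 5 and 2 of 13 on the other ppx plates and 3 of 16, 4 of 48 and 8 of 54 on the sham plates. Over all plates, the 25 members with at least 1% Ppy had a median of 21272 Pyy CPM of all UMIs in the well, against 2941 in the other 118. With those 25 wells left out, an alternative chosen after seeing the data, ppx plates 1 and 3 kept 3 and 1 members and dropped out of the fit. The ppx side then rested on plate 2 alone, assumed to vary like the sham plates, the Pyy value was 0.54 and not called (adjusted p = 0.49), and none of the 5 genes was called. Across kinds, Pyy was higher in members than in insulin-only wells (4.23) and lower than in somatostatin-only wells (-1.08, not called by DESeq2). Somatostatin-only wells held more Ppy than members (medians of 2.56% and 0.140% of UMIs), and its part in the second value was not tested.

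Hsp90b1, the endoplasmic reticulum chaperone GRP94, stood at 45.5, 212 and 151 CPM on the sham plates and 601, 341 and 484 CPM on ppx plates, without overlap. Its log2 fold change was 1.62 ± 0.42, edgeR adjusted p = 0.022. It was the only one of 12 tested genes of the endoplasmic reticulum list to be called, and the median of those 12 was 0.25. DESeq2 did not call it (1.70). The Hsp90b1 call was lost without sham plate 1 (1.4), sham plate 3 (1.56), ppx plate 1 (1.34) or ppx plate 3 (1.6).

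Rnase4, a secreted ribonuclease gene, stood at 478, 581 and 597 CPM on the sham plates and 248, 170 and 215 CPM on ppx plates, without overlap. It fell by 1.38 ± 0.36, edgeR adjusted p = 0.022, was not called by DESeq2 and lost its call without any 1 of the 6 plates, with values from -1.59 to -1.25. In the 25 members with at least 1% Ppy, Rnase4 stood at 193 CPM over all sham and 200 CPM over all ppx wells, from 7 UMIs each. In the other 118 members it stood at 624 and 219 CPM, the latter from 9 UMIs in 15 wells. The part of this mix of wells in the fall was not tested. Gm28437, an unprocessed pseudogene at chr1:24613189-24613971, had overlapping plates, at 2049, 165 and 1647 CPM on the sham plates and 637, 375 and 53.8 CPM on ppx plates. It fell by 1.57 ± 0.40, edgeR adjusted p = 0.022, and was not called by DESeq2. Insulin-only wells showed the same order of plates, at 2457, 208 and 2046 CPM (sham) and 888, 516 and 194 CPM (ppx). As a pseudogene it may share reads with a near-identical copy, so its value is uncertain, and its call was lost without any 1 plate other than sham plate 2 (values from -2.27 to -1.19).

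**Figure D5:**
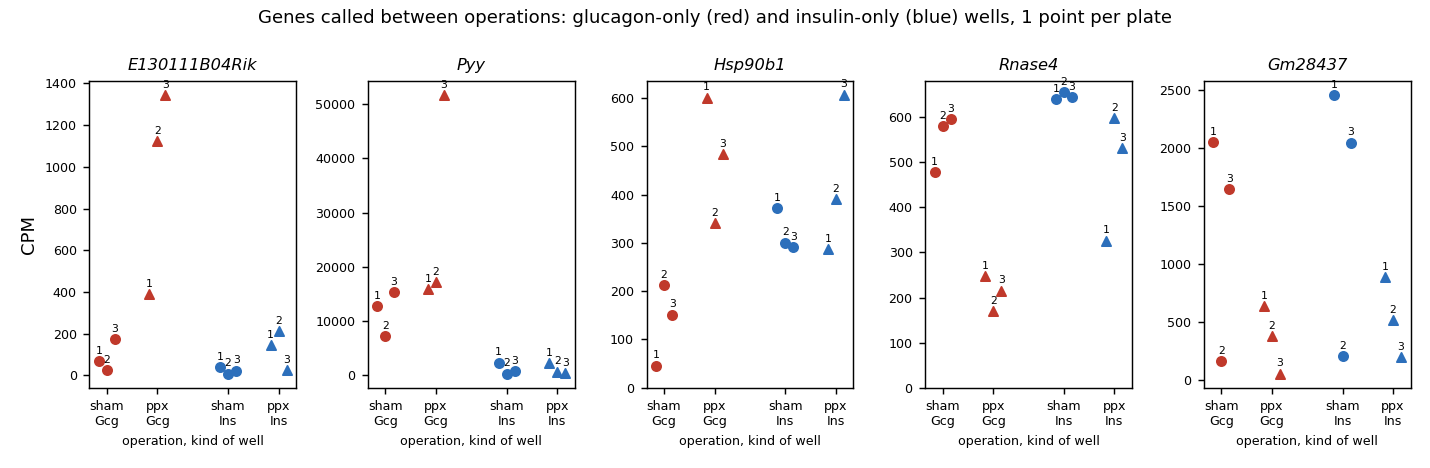
CPM of the 5 genes called between ppx and sham in glucagon-only wells (red) and the same genes in insulin-only wells (blue), 1 point per plate with its replicate number, circles sham and triangles ppx. E130111B04Rik rose on all 3 ppx plates in glucagon-only wells, and the Pyy value of 51697 CPM belongs to ppx plate 3.

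No alpha identity gene was called between operations. Of 5 tested, none was called by edgeR or DESeq2, none had an unadjusted p under 0.05 in edgeR, and the median was -0.01, with Ttr at -0.06 ± 0.21 and Pappa2 at 0.06 ± 0.19. Irx2, tested without a call, had -0.50 ± 0.50. In the edgeR fit without the count filter, Gfra3 (-2.09), Irx1 (-1.53) and Irx2 (-0.96) were each lower in ppx at an unadjusted p under 0.05, and none passed adjustment (edgeR adjusted p = 0.59, 0.80 and 0.80). The Gfra3 plates given above did not overlap, with sham above ppx. None of 12 tested processing and granule genes (median 0.06), 10 immediate early and heat shock genes (median 0.21) or 48 ribosomal protein genes (median -0.07) was called by edgeR or DESeq2, and 0, 2 and 2 of them had an unadjusted p under 0.05. The median over all 491 genes was 0.01.

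The ppx effect differed between glucagon-only and insulin-only wells in 2 of 2835 genes (0.0705%) by the edgeR interaction test, with 189 (6.67%) at an unadjusted p under 0.05 and 0 called by DESeq2. Pyy had an interaction of 0.97 ± 0.22, adjusted p = 0.027. Without ppx plate 3 it was -0.13, without sham plate 1 0.32 and without ppx plate 2 1.08, each not called, and without ppx plate 1 it was 1.86. Malat1, a nuclear long noncoding RNA, had 2.10 ± 0.50, edgeR adjusted p = 0.046. Its call was lost without ppx plate 2 (-0.14), sham plate 1 (1.91), sham plate 2 (1.79) or ppx plate 1 (2.36), and the value was 3.08 without sham plate 3 and 3.02 without ppx plate 3. Malat1 stood at 0, 54.9 and 166 CPM on the sham plates and 106, 1090 and 269 CPM on ppx plates in members, where sham plate 3 lay above ppx plate 1. Rbp4, not called with all plates (-1.25, adjusted p = 0.46), was the 1 gene called without sham plate 1 (-2.32) and without ppx plate 2 (-2.62). The median interaction over all genes was -0.14.

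Between tomato-positive and tomato-negative plates, with the operation in the model and the mixed plate left out, 0 of 423 genes were called in glucagon-only wells by edgeR and 0 by DESeq2, and 20 (4.73%) had an unadjusted p under 0.05. In 82 genes (19.4%) the plates did not overlap. The positive side holds the 16 and 5 wells of sham plate 1 and ppx plate 1. Ttr had -0.51 ± 0.26, Pappa2 0.10 ± 0.21 and Pyy -0.73 ± 0.30 (positive minus negative). The 4 tested alpha identity genes had a median of 0.09, beside 0.03 over all genes.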

How the data were processed

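Each of the 6 plates was deposited as a table of counts, whole-number UMIs per gene and well, made by the authors. Reads were aligned with HISAT 0.1.6 to mm10, per the submitters' processing notes, with the counting tool and annotation not given in the sources used here. Rows of ERCC spike-ins were dropped, and the well and hormone thresholds given above were applied. UMIs were summed per plate and kind of well over at least 5 wells, leaving the hormone genes Gcg, Ins1, Ins2, Sst and Ppy out of library sizes and tests. Sums held 18589 to 132330 UMIs for glucagon-only wells, which limits precision to genes of moderate level. No well names were shared between plates.

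Sums were tested with edgeR 4.0.16 (TMM scaling, its count filter, quasi-likelihood F test, adjusted p under 0.05), with plate as a block between kinds of well. Plates were compared singly with exact sign-flip or permutation tests, enumerated in Python 3.11.15 with numpy 2.4.6. The exact binomial intervals of the shares came from scipy 1.17.1. DESeq2 1.42.0, no count filter, hormone genes kept, stricter gates, minimum wells and UMIs, tomato status, a replicate block and leaving out each plate were alternatives. Members with Ppy under 1%, and the kinds of well compared on the tomato-negative plates alone, were alternatives chosen after seeing the data. On simulated counts, log2 changes of 1 were recovered in 82 of 92 genes between glucagon-only and insulin-only wells, 57 of 89 against somatostatin-only wells and 68 of 82 between operations. The interaction recovered 4 of 85 at that size and 44 of 88 at a log2 change of 2, so it had little power in those counts. Between operations 82 and 86 genes were changed beside 300 unchanged, and in the interaction 85 and 88 beside 2502 unchanged. With such different shares of changed genes, these recoveries cannot be set against each other. Calls among unchanged genes numbered 4 between operations and 3 in the interaction. Power in the measured plates was not tested. Up to 12 called genes per direction with the largest change, the same direction on every plate (or plates not overlapping between operations) and at least 50 CPM in the higher group are named. The labelled markers and each list's called members, or the member with the smallest p, were eligible too. Members and lists were chosen with earlier results of these data known. Some genes, list members among them, are not reported here: they stayed in the fits and were left out of the list counts. Sequences are from RefSeq.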

Additional observations from a re-analysis of the deposited data

Results flagged for a closer look

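In glucagon-only wells, 11 of 49 values tested had 1 plate standing apart from the other 5. Chance flags about 1 in 20 groups of continuous values, but a gene with UMIs on 1 plate alone is always flagged. The count of 11 therefore cannot be set against that rate. The median UMIs per well were 9169 on ppx plate 1, which held 5 members, against 4104 on the next plate. The median Ppy share was 2.96% on ppx plate 3, which held 7 members, against 0.408% on the next, and Pyy was 51697 CPM there against 17205 CPM. The other 8 values rest on 1 to 3 UMIs of genes of beta, delta or other cells. Tmem215 (15.7 CPM) and Cd44 (7.85 CPM) stood out on sham plate 2. Pdyn, Nnat, Cela1 and Mest each stood at 22.8 CPM on sham plate 1. On ppx plate 1, Hhex was at 35.4 CPM, and on ppx plate 2 Spock1 was at 34.1 CPM.

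The ppx effect differed between glucagon-only and insulin-only wells for Malat1 (2.10 on the log2 scale, edgeR adjusted p = 0.046) and for Pyy (0.97, adjusted p = 0.027). The Pyy value was -0.13 without ppx plate 3 and 0.32 without sham plate 1, and the Malat1 value was -0.14 without ppx plate 2 and lost its call without any 1 of 3 other plates.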

How the results depend on the processing

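The number of genes called between glucagon-only and insulin-only wells was 885, and was 1495 without the count filter (481 higher and 1014 lower) and 315 on the tomato-negative plates alone, where 449 genes were tested. Its other alternatives gave 627 to 1036. Against somatostatin-only wells it was 469, and was 207 with only the 2 kinds compared in the fit (447 genes tested) and 93 on the tomato-negative plates. Other alternatives gave 324 to 494, and without the count filter the split was 200 higher and 273 lower. The median of all genes against insulin-only wells moved to -0.11 with DESeq2, -0.36 without the filter and -0.20 on the tomato-negative plates. Between operations 5 genes were called, against 1 with DESeq2, 2 with hormone genes in the library sizes, 2 with at least 10 wells per sum (1 of them among the 5), 2 with tomato status as a term, 3 with Ppy under 1% (0 of them among the 5), and 1 to 6 without 1 plate. The interaction gave 2 calls, against 0 with DESeq2, without the filter, with hormone genes in the library sizes and at 1000 UMIs per well, 1 with at least 10 wells per sum, and 1 to 2 without 1 plate. The 1 call without sham plate 1, and that without ppx plate 2, was Rbp4, not among the 2. The tomato comparison gave 1 with the stricter gate and 0 to 1 without 1 plate, and could not be fitted with at least 10 wells per sum. The log2 ratio of median UMIs to somatostatin-only wells was 0.95 under the stricter gate and 0.93 to 1.33 without 1 plate, each with exact p = 0.0625, the smallest that 5 plates allow. The difference in share stayed between -12.4 and -6.72 points. The sign reversed for Ier2 against somatostatin-only wells on the tomato-negative plates (-0.11) and, in the interaction, for Pyy without ppx plate 3 (-0.13) and Malat1 without ppx plate 2 (-0.14). Without 1 plate, the interaction ranged from -0.13 to 1.86 for Pyy and from -0.14 to 3.08 for Malat1. Without the count filter, calls were also lost for Isl1, Pam, Scg5, Scgn, Slc3a2 and Slc7a8 against insulin-only wells, and for Abcc8, Adra2a, Atf4, Egr1, Gria2, Jun, Kcnj11, Pam and Smarca1 against somatostatin-only wells. On the tomato-negative plates the calls of Atf4, Egr1, Fos and Pam against somatostatin-only wells were lost, and Lpl (3.04) and Tmsb15b2 (3.19) were smaller. Beyond fewer plates or genes tested, the cause of these changes was not tested.

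Deviations of log2 CPM from the mean of each operation showed little pairing of plates by replicate number. Across 491 genes their correlations were -0.017, 0.084 and 0.071 for same-numbered sham and ppx plates, and -0.095 to 0.017 for different-numbered ones. With the replicate block 3 genes were called between operations, and the difference in share kept -9.01 points with an exact p = 0.25. Without the plate block, 909 and 474 genes were called between kinds of well.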
